A study of Mus musculus with 12 samples.

Results

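Voltage-gated calcium channel genes were examined in poly(A) RNA of mouse hippocampus. The 10 genes were listed by name and channel type. They were the alpha1 genes *Cacna1a*, *Cacna1b*, *Cacna1c*, *Cacna1d*, *Cacna1e*, *Cacna1g*, *Cacna1h* and *Cacna1i* and the alpha2delta genes *Cacna2d1* and *Cacna2d3*. All 10 were found among the 37991 genes counted, and all 10 were among the 16399 genes that passed the filter on low counts.

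The study asked which hippocampal transcripts depend on *Gadd45a*, a stress-induced gene, during the consolidation of an aversive memory. There were 6 libraries labelled *Gadd45a*-WT and 6 labelled *Gadd45a*-KO, 1 per mouse. The mice were C57BL/6N siblings from crosses of heterozygotes, wild type or *Gadd45a*-/-, and the labels give an age of 6 to 7 months. Both groups were trained in the passive avoidance test (PA), in which a mouse learns to avoid a dark compartment where it received a shock, and hippocampi were taken 1 h later, so no untrained group entered these comparisons. The knockout is present in all cells of the body, and a neomycin cassette replaces its first 3 exons.

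Voltage-gated calcium channels open when a neuron is depolarized and let calcium in, which triggers transmitter release, dendritic calcium signals and activity-dependent transcription. The alpha1 subunit forms the pore and sets the channel type. L-, P/Q-, N- and R-type channels need strong depolarization, whereas T-type channels open near the resting potential. The extracellular alpha2delta subunits and the cytoplasmic beta subunits bring high-voltage-activated channels to the membrane and tune their gating. In hippocampal neurons P/Q- and N-type channels are best known for transmitter release, L-type channels for signalling to the nucleus, and R-type channels for calcium entry into dendrites and spines.

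The split between high-voltage and T-type channels can be read in the coding sequence. The lines below give the 27 bases around the selectivity filter in the pore loop of the third repeat, from the NCBIM37 transcripts. They are shown because this filter residue separates the 5 high-voltage genes from the 3 T-type genes whose values follow. Capitals mark the codon of the filter residue, which is glutamate (GAG or GAA) in the L-, P/Q-, N- and R-type genes and aspartate (GAT) in the T-type genes.
Cacna1a (P/Q-type): gtgtccacaggaGAGggctggccacag
Cacna1b (N-type): gtgtccacgggaGAGgggtggcccatg
Cacna1c (L-type): gtctccaccttcGAAgggtggccagag
Cacna1d (L-type): gtctcaacttttGAGggctggcccgcg
Cacna1e (R-type): gtctctacagggGAAggatggcctcag
Cacna1g (T-type): ctggcctccaagGATggctgggttgac
Cacna1h (T-type): ctgtcatccaagGATggctgggtaaac
Cacna1i (T-type): ttggcctccaagGATggctgggtgaac

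Between 44594261 and 55540601 reads per library fell on genes, so that 1 read was worth 0.018 to 0.0223 CPM (read counts scaled to library size by TMM). Reads on *Gadd45a* itself went against the labels. Its level was 2.58 ± 0.481 CPM under the label *Gadd45a*-WT against 21.4 ± 1.07 CPM under the label *Gadd45a*-KO (SD, n = 6 each; log2 fold change 3.06, SE 0.09, adjusted p = 1.33e-10, quasi-likelihood test of edgeR, adjusted by Benjamini-Hochberg). Counts per gene do not separate the remaining exon from the replaced ones, and every direction below is that of the label. The share of counted reads that fell in no gene was 14.4 to 15.8% under the label *Gadd45a*-WT and 13 to 14.3% under the label *Gadd45a*-KO, without overlap (two-sided exact permutation p = 0.00216). Summed thalamic markers were at 503 and 761 CPM in replicates 2 and 3 labelled *Gadd45a*-KO, against 161 to 216 CPM in the other 10 libraries.

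*Cacna1e* and *Cacna2d1*, the R-type pore and an alpha2delta subunit, were lower under the label *Gadd45a*-KO, in which reads on *Gadd45a* itself were higher. Their CPM were lower by 35% and by 17.7%. No call was made for the other 8 genes. At 1% FDR, 2 of the 10 genes were lower and 0 were higher, against 2.62% lower and 0.0244% higher of all tested genes (edgeR quasi-likelihood test, Benjamini-Hochberg). At an unadjusted p under 0.05, 3 were lower and 0 higher, against 9.35% and 4.34% of all tested genes, and DESeq2 likewise called 2 lower and 0 higher. In 2 genes every library labelled *Gadd45a*-KO lay below every library labelled *Gadd45a*-WT, as in 3.12% of all tested genes, and in 0 genes every one lay above, as in 0.183%. The median log2 fold change was -0.08 over the 10 genes and 0.00 over all tested genes, with 70% and 48.2% below 0. With an offset for transcript length the median over the 10 genes was 0.01 with 40% below 0, so the lean of the group towards lower values depended on this setting. The same offset moved *Cacna1e* from -0.62 to -0.46 and *Cacna2d1* from -0.28 to -0.20, and both still passed 1% FDR. In bulk tissue, fewer cells of a type and less RNA per cell cannot be told apart. Counts per gene in poly(A) RNA also do not separate fewer transcripts from fragmented ones that lost the parts far from the poly(A) tail. The paper proposes such fragmentation for transcripts such as *Grin2a* and *Grm5*, from read coverage and qPCR, and it was not tested here. The paper also lists *Cacna1e* among ion channel genes with reduced expression in the knockout, from these same 12 libraries.

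**Figure D1:**
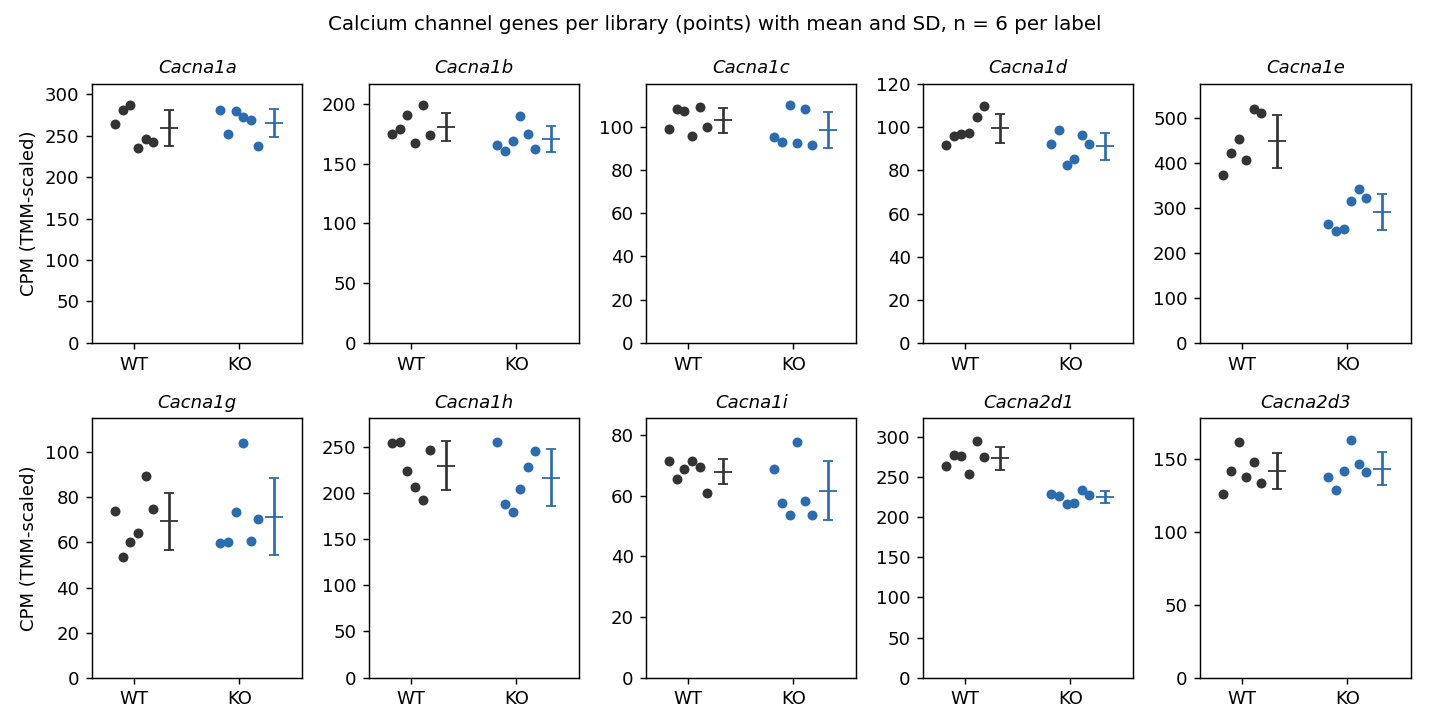
CPM of each of the 10 genes (y axis, from 0) in the 6 libraries labelled *Gadd45a*-WT (black) and the 6 labelled *Gadd45a*-KO (blue), 1 point per library, with mean and SD beside the points. The points separate by label for *Cacna1e* and *Cacna2d1*, and overlap for the other 8 genes.

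The R-type gene *Cacna1e* (ENSMUSG00000004110) maps to chromosome 1 (NCBIM37, 156239649 to 156573049, minus strand), and the annotation gives it 1 transcript of 12696 nt. Libraries labelled *Gadd45a*-WT ranged from 374 to 520 CPM, with a median of 438. Libraries labelled *Gadd45a*-KO ranged from 248 to 343 CPM, with a median of 290 and at least 11281 reads each. All 6 therefore lay below the lowest library labelled *Gadd45a*-WT. The means were 448 ± 58.1 and 291 ± 40.6 CPM (SD, n = 6 each), and the log2 fold change was -0.62 (SE 0.10, 95% interval -0.83 to -0.41, adjusted p = 0.00138 by the same edgeR test). The exact permutation test of log2 CPM gave the smallest two-sided p that 6 libraries against 6 allow, 0.00216. On the linear scale the interval ran from -43.7 to -24.9%.

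Within the label *Gadd45a*-KO, *Cacna1e* was lowest in replicates 1, 2 and 3 (265, 248 and 253 CPM), which include both libraries with high thalamic markers. Within that label, Pearson's r of *Cacna1e* against summed thalamic markers over the 6 libraries was -0.79 (exact permutation p = 0.0431, adjusted p = 0.431 over 20 relations) and Spearman's rho -0.71. Without the 2 libraries farthest from the median, r was -0.59. Across the 6 libraries labelled *Gadd45a*-WT, r was -0.15. With the thalamic marker level as a covariate the log2 fold change of *Cacna1e* was -0.52 (adjusted p = 0.00439) and with an offset for transcript length it was -0.46 (adjusted p = 0.00599), both by edgeR and Benjamini-Hochberg. *Cacna1e* was also set against the share of reads in no gene, a relation examined after the values were seen. Pearson's r was 0.85 across libraries labelled *Gadd45a*-WT (exact permutation p = 0.0361, adjusted p = 0.144 over 4 relations, 0.43 without the 2 farthest libraries) and 0.53 across those labelled *Gadd45a*-KO (exact permutation p = 0.297, -0.49 without the 2 farthest). For *Cacna2d1*, r was 0.60 (exact permutation p = 0.217, 0.89 without the 2 farthest) and 0.64 (exact permutation p = 0.167, -0.53 without the 2 farthest), and 0 of the 4 relations passed the adjustment. Since that share separated the labels, the share and the label cannot be told apart for either gene.

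*Cacna2d1* (ENSMUSG00000040118), the alpha2delta subunit known as a target of gabapentinoid drugs, maps to chromosome 5 (15440509 to 15880329, plus strand). Libraries labelled *Gadd45a*-WT ranged from 253 to 295 CPM, with a median of 275, and those labelled *Gadd45a*-KO from 216 to 234 CPM, with a median of 227. The groups did not overlap, and the spread was small, with means of 273 ± 14 and 225 ± 7.19 CPM (SD, n = 6 each). The log2 fold change was -0.28 (SE 0.04, 95% interval -0.36 to -0.20, adjusted p = 0.000469, edgeR with Benjamini-Hochberg adjustment), and the exact permutation p was 0.00216. With an offset for transcript length together with the replicate block, the log2 fold change was -0.20 with an adjusted p of 0.0126 in the same test, which did not pass 1% FDR. *Cacna2d3* (ENSMUSG00000021991), its relative on chromosome 14 (29718133 to 30535050, minus strand), had 126 to 162 CPM (median 140) and 129 to 163 CPM (median 141) under the labels *Gadd45a*-WT and *Gadd45a*-KO. These ranges nearly coincided, and the 95% interval of the difference ran from -7.92 to 10.7% (log2 fold change 0.01, SE 0.06). Whether the difference of *Cacna2d1* exceeded that of *Cacna2d3* was not tested.

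The P/Q- and N-type genes, which encode the main presynaptic channels, gave no call. *Cacna1a* (ENSMUSG00000034656, chromosome 8, 86912339 to 87164145, plus strand) had 235 to 287 CPM (median 255) under the label *Gadd45a*-WT and 237 to 281 CPM (median 270) under *Gadd45a*-KO. *Cacna1b* (ENSMUSG00000004113, chromosome 2, 24459407 to 24618672, minus strand) had 167 to 199 CPM (median 177) and 161 to 190 CPM (median 168). For both genes the ranges overlapped over most of their width. The 95% intervals of the difference ran from -5.95 to 11.5% for *Cacna1a* (log2 fold change 0.03, SE 0.06) and from -12.3 to 1.74% for *Cacna1b* (log2 fold change -0.08, SE 0.05).

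Neither L-type gene passed 1% FDR. *Cacna1c* (ENSMUSG00000051331, chromosome 6, 118542314 to 119146249, minus strand), which lies 51.6 Mb from *Gadd45a*, had 95.5 to 109 CPM (median 103) and 91.6 to 110 CPM (median 94.2) under *Gadd45a*-WT and *Gadd45a*-KO. The ranges overlapped, and the interval of the difference was -12.1 to 3.4% (log2 fold change -0.07, SE 0.05). *Cacna1d* (ENSMUSG00000015968, chromosome 14, 30853135 to 31304342, minus strand), the L-type gene with activation at more negative potentials, had 91.9 to 110 CPM (median 97.2) and 82.5 to 98.6 CPM (median 92.5). Its 6 libraries labelled *Gadd45a*-KO all lay below the mean of the other label, but the ranges overlapped. The log2 fold change was -0.12 (SE 0.05, interval -15.1 to -0.872%), with an adjusted p of 0.292 by edgeR and Benjamini-Hochberg and an exact permutation p of 0.0671.

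The T-type genes, known for low-threshold bursts, had the largest SEs of the genes without a call (0.08 to 0.14 on the log2 scale). *Cacna1g* (ENSMUSG00000020866, chromosome 11, 94269705 to 94335414, minus strand) had 53.7 to 89.6 CPM (median 69.1) and 59.9 to 104 CPM (median 65.6) under *Gadd45a*-WT and *Gadd45a*-KO. The highest value stood alone in replicate 4 labelled *Gadd45a*-KO, a library that also had the highest CA1 marker sum (714 CPM) and the lowest dentate granule cell marker sum (255 CPM) of the 12, and the part of these in the value was not tested. The 95% interval, -16.7 to 27.2%, was the widest of the 10 genes, and without that library the log2 fold change was -0.09 in place of 0.04. *Cacna1h* (ENSMUSG00000024112, chromosome 17, 25511230 to 25570728, minus strand) had 192 to 255 CPM (median 235) and 179 to 255 CPM (median 216), and the interval was -18 to 8.64%. *Cacna1i* (ENSMUSG00000022416, chromosome 15, 80117668 to 80228709, plus strand) had 60.7 to 71.5 CPM (median 69.1) and 53.6 to 77.8 CPM (median 57.9), with an interval of -19.9 to 2.81%. In all 3 genes the groups overlapped. *Cacna1h* varied with thalamic markers in opposite directions within the labels, with r = 0.93 across libraries labelled *Gadd45a*-WT (exact permutation p = 0.0139, adjusted p = 0.278, rho 0.94) and r = -0.81 across those labelled *Gadd45a*-KO (exact permutation p = 0.0681, adjusted p = 0.454, rho -0.49). The second turned to 0.73 without the 2 farthest libraries, and 0 of the 20 relations passed the adjustment.

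**Figure D2:**
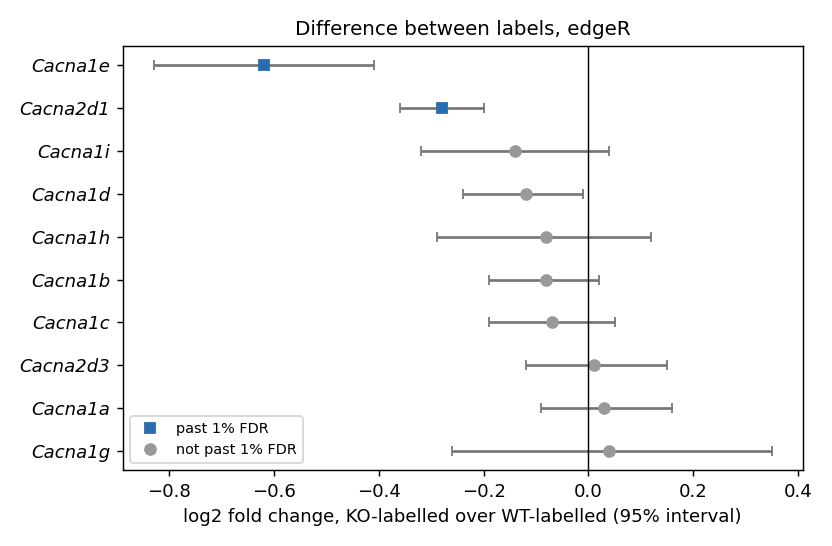
Log2 fold change of each gene, label *Gadd45a*-KO over label *Gadd45a*-WT (x axis), with its 95% interval from edgeR; squares passed 1% FDR. Of the 10 genes, 7 lie to the left of 0, with *Cacna1e* (-0.62) and *Cacna2d1* (-0.28) farthest, and *Cacna1g* has the widest interval.

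To set the genes against each other, CPM were divided by the length of merged exons in kb, since longer transcripts collect more reads. Under the label *Gadd45a*-WT, *Cacna2d3* stood at 38.4 ± 3.34, *Cacna1e* at 35.3 ± 4.57 and *Cacna2d1* at 32.6 ± 1.66 CPM per kb (SD, n = 6). Neighbours among these 3 did not differ beyond the sum of their SDs. *Cacna1h* (23.4 ± 2.71) and *Cacna1a* (22.7 ± 1.89) followed without a gap between them beyond their spread, and then *Cacna1b* at 18.2 ± 1.19 CPM per kb. The L-type genes *Cacna1c* (11.7 ± 0.673) and *Cacna1d* (10.6 ± 0.71) again did not differ beyond their spread, and neither did *Cacna1g* (6.91 ± 1.27) and *Cacna1i* (6.88 ± 0.418), which were lowest. *Cacna1e* was thus the alpha1 gene with the highest mean level per kb of merged exons under this label.

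Under the label *Gadd45a*-KO, *Cacna2d3* was first at 38.8 ± 3.08 CPM per kb and *Cacna2d1* second at 26.8 ± 0.858, a gap beyond the sum of their SDs. *Cacna1e*, at 22.9 ± 3.2, stood between *Cacna1a* (23.2 ± 1.51) and *Cacna1h* (22.1 ± 3.18), and these neighbours did not differ beyond their spread. The order below them was that of the other label. With the longest transcript in place of merged exons, *Cacna2d1* was placed before *Cacna1e* and *Cacna1a* before *Cacna1h* under the label *Gadd45a*-WT, pairs that did not differ beyond their spread on the first scale. *Cacna1a* has 11418 nt of merged exons but 7926 nt in its longest transcript, while *Cacna1e* has 12696 nt on both. The order by longest transcript under *Gadd45a*-KO is not given, so the places of *Cacna1e* and *Cacna1a* there hold for merged exons only. The paper reports read coverage biased towards the 3′ end, and levels per length were not adjusted for it.

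The share of each channel type in the summed alpha1 level per kb of merged exons was computed within each library, as a description without a test. The sum itself was 136 ± 6.15 CPM per kb under the label *Gadd45a*-WT and 120 ± 6.65 under *Gadd45a*-KO (SD, n = 6 each). The R-type share was 25.9 ± 2.49% (22.4 to 28.9%) and 19.1 ± 1.9% (17.1 to 21.5%), without overlap. The other shares were P/Q-type 16.7 ± 1.4 and 19.4 ± 1.49%, N-type 13.4 ± 0.59 and 14.4 ± 0.671%, L-type 16.5 ± 0.342 and 17.5 ± 1.35%, and T-type 27.5 ± 1.96 and 29.6 ± 1.99%. Each of these 4 ranges overlapped between the labels, and since shares sum to the whole, a lower R-type share raises the others.

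**Figure D3:**
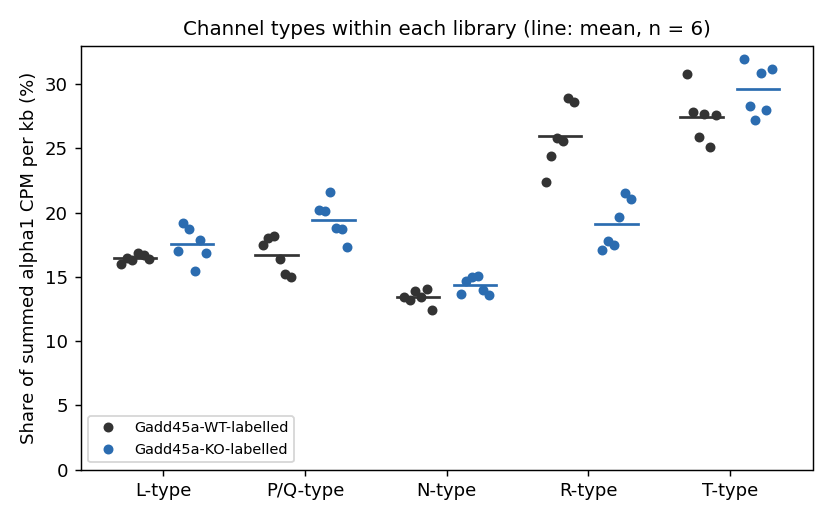
Share of each channel type in the summed alpha1 CPM per kb (y axis, %) in each of the 12 libraries, with lines at the means of 6. The R-type points of the label *Gadd45a*-KO (17.1 to 21.5%) lie below those of the label *Gadd45a*-WT (22.4 to 28.9%), while the other types overlap.

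Of 16 further subunit genes, 14 were tested, and at 1% FDR 1 was lower and 0 were higher (by DESeq2, likewise 1 and 0), against 2.62% and 0.0244% of all tested genes. At an unadjusted p under 0.05, 2 were lower and 1 higher, where all tested genes gave 9.35% and 4.34%. The median log2 fold change of the 14 was 0.01. The gene that passed was *Cacnb4* (ENSMUSG00000017412, chromosome 2, 52283845 to 52532350, minus strand), a beta subunit best known from the lethargic mouse. It had 122 to 140 CPM (median 132) under the label *Gadd45a*-WT and 99.4 to 115 CPM (median 105) under *Gadd45a*-KO. The groups did not overlap, and the log2 fold change was -0.32 (SE 0.04, 95% interval -0.41 to -0.22, adjusted p = 0.000578, edgeR quasi-likelihood test, Benjamini-Hochberg). The other beta subunits gave no call, with log2 fold changes of -0.09 (SE 0.06) for *Cacnb1*, -0.06 (SE 0.05) for *Cacnb2* and -0.04 (SE 0.05) for *Cacnb3*.

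*Cacna2d2*, the third alpha2delta gene, had 23.3 ± 1.36 and 25 ± 2.43 CPM under *Gadd45a*-WT and *Gadd45a*-KO (SD, n = 6 each; log2 fold change 0.10, SE 0.06). *Cacna2d4* was low under the label *Gadd45a*-WT (0.808 to 1.62 CPM) and ranged from 1.15 to 4.26 CPM under *Gadd45a*-KO. Its 2 highest values, 2.75 and 4.26 CPM, were in replicates 2 and 3, the libraries with high thalamic markers. The log2 fold change of 0.79 (SE 0.31, adjusted p = 0.234, edgeR quasi-likelihood test, Benjamini-Hochberg) was 0.15 with the thalamic marker level as a covariate. The 7 tested gamma subunit genes, several of which serve AMPA receptors rather than calcium channels, had log2 fold changes from -0.19 (*Cacng3*) to 0.22 (*Cacng5*). Of these 7, 0 passed 1% FDR, against 2.62% lower and 0.0244% higher of all tested genes. *Cacna1f* and *Cacng1*, with at most 21 and 3 reads in any library, were not tested.

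Of 18 genes whose products bind or anchor these channels (Stac adaptors, RGK GTPases, calcium-binding proteins, active zone tethers, SNAREs and kinase anchors), 0 passed 1% FDR in either direction by edgeR or by DESeq2. Of all tested genes, 2.62% were lower and 0.0244% higher by edgeR, so a count of 0 among 18 does not set these genes apart. At an unadjusted p under 0.05, 1 was lower and 0 higher, no larger a share than the 9.35% and 4.34% of all tested genes. The gene counted there, *Akap5*, anchors PKA and calcineurin at L-type channels and had 90.6 ± 8.51 and 76.5 ± 8.48 CPM (SD, n = 6 each; log2 fold change -0.25, SE 0.07, adjusted p = 0.096, edgeR quasi-likelihood test, Benjamini-Hochberg). The tethers *Rims1*, *Rims2* and *Rimbp2*, which hold presynaptic channels at release sites, had log2 fold changes of -0.01, -0.02 and 0.01.

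The 3 subunit genes past 1% FDR also had the 3 longest annotated 3′UTRs among the 24 tested subunit genes, a feature that was looked at after the values were seen and is described without a test. *Cacnb4* has 6164 nt, *Cacna1e* 5874 nt and *Cacna2d1* 3837 nt, against a median of 1143 nt over 14904 tested coding genes. The next in order, *Cacng2* with 3401 nt, had a log2 fold change of 0.06, and *Cacng5* with 2747 nt had 0.22. Spearman's rho between 3′UTR length and log2 fold change was -0.88 across the 10 genes, -0.23 across the 24 and -0.11 across the 14904 coding genes. The 24 include *Cacng6* and *Cacng8*, whose annotated 3′UTR is 0 nt. The 10 include *Cacna2d3* with 318 nt, *Cacna1a* with 538 nt and *Cacna1g* with 754 nt. Each rho, also that across the 10, therefore depends on how complete the gene models are. Genes are not independent replicates, and all points share the same 12 libraries. For the length of the longest transcript, rho was -0.43, -0.32 and -0.21, and for GC content 0.32, 0.23 and 0.15. The 10 genes were long in general, with a median longest transcript of 8306 nt against 2996 nt over all tested genes. Reads beyond the annotated ends were not analysed here.

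**Figure D4:**
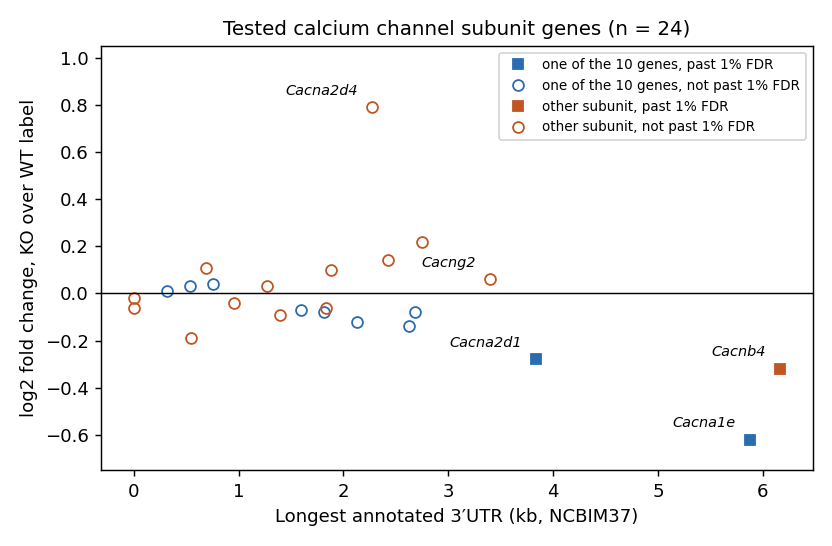
Longest annotated 3′UTR (x axis, kb) against log2 fold change of the label *Gadd45a*-KO over *Gadd45a*-WT (y axis) for the 24 tested subunit genes; filled squares passed 1% FDR. *Cacna2d1*, *Cacna1e* and *Cacnb4* lie farthest to the right and below 0, while *Cacng2* with 3401 nt lies at 0.06.

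Marker sums of the cell types in or next to the hippocampus overlapped between the labels for all 10 lists. Under *Gadd45a*-WT and *Gadd45a*-KO, CA1 pyramidal markers summed to 461 to 644 and 335 to 714 CPM (exact permutation p = 0.177), dentate granule cell markers to 387 to 558 and 255 to 545 CPM (exact permutation p = 0.281), and CA2 and CA3 markers to 388 to 506 and 460 to 524 CPM (exact permutation p = 0.106). All 10 lists were detected in every library. The lowest p-values were those of microglial markers, with medians of 201 and 209 CPM (exact permutation p = 0.0519), and oligodendrocyte markers, with medians of 2361 and 2830 CPM (exact permutation p = 0.0649), and their part in the differences was not tested. Oligodendrocyte markers reached 5713 CPM in replicate 3 labelled *Gadd45a*-KO, against 1849 to 2885 CPM under *Gadd45a*-WT. Without that replicate the log2 fold changes of *Cacna1e* and *Cacna2d1* were -0.58 and -0.26, both past 1% FDR. At 1% FDR, 0 marker genes passed in any list, against 2.62% lower and 0.0244% higher of all tested genes. Whether cell composition had a part in the differences of *Cacna1e* and *Cacna2d1* was not tested.

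The tested genes outside these lists whose variation among libraries was most like that of *Cacna1e*, by Pearson's r of deviations from the label means over 12 libraries, were *Mtr* (0.99), *Snrnp200* (0.99), *Adra1a* (0.97), *Ankhd1* (0.97) and *Cnot1* (0.96). These 5 were picked as the highest among all tested genes, so the size of r is fixed by that choice. Of the 5, 0 passed 1% FDR between the labels, against 2.62% lower and 0.0244% higher of all tested genes. Their log2 fold changes ran from -0.47 (*Adra1a*) to -0.06 (*Snrnp200*) and their adjusted p from 0.0189 to 0.504 (edgeR quasi-likelihood test, Benjamini-Hochberg).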

How the data were processed

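The authors sequenced stranded poly(A) libraries of 12 hippocampi, aligned reads with TopHat 1.4.1 to NCBIM37/mm9 and deposited raw read counts per Ensembl gene from strand-specific htseq-count (HTSeq 0.5.4p3), without normalization or pooling. Genes were named, and sequences and lengths taken, from an annotation of the same build but an earlier Ensembl release, which matched 37205 of 37991 IDs. Reads in no gene (13 to 15.8% of counted reads) stayed out of library sizes. Genes were filtered, scaled by TMM and compared across all 12 libraries with the quasi-likelihood test of edgeR 4.0.16 (R 4.3.3) at 1% FDR, the study's threshold, and adjusted p-values cover all 16399 genes tested. SEs were derived by dividing the absolute log2 fold change by the root of the F statistic. Exact permutation tests were two-sided (Python 3.11.15). Those of single genes used log2 CPM with a prior count of 2. Those of marker sums used log2 of the summed CPM without a prior count, and that of the share of reads in no gene used the percentage. Ranks for rho within the labels were taken with scipy 1.17.1.

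The 10 genes and all lists were chosen with earlier results of these data known. All list genes are given by counts, with values for those past 1% FDR, the beta subunits and *Cacna2d2*; *Cacna2d4*, *Cacng2*, *Cacng3*, *Cacng5*, *Akap5* and the tethers were named after their values were seen. A further listed gene was counted in its list but left out of the search for outlying libraries, and its values are not reported here. The marker *Ntng1* carried several IDs and was not used, which left 13 thalamic markers. No same-strand exon of another gene overlaps the 10 genes, so strand-specific counting keeps their reads apart from the opposite-strand partners of *Cacna1a*, *Cacna1d* and *Cacna1h*. Same-label library pairs differed beyond counting error (chi-square per degree of freedom 9.12 to 40.6 over 30 pairs).

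Alternatives were DESeq2 1.42.0, a replicate block, RLE size factors, a minimum of 10 counts per library, no filter, splines with 5 degrees of freedom for transcript length or GC content with and without the block, a thalamic covariate, 5% FDR, a prior count of 0.5 (permutation tests) and leaving out each library. The procedures were tested on simulated data. Figures were drawn with matplotlib 3.10.9.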

Additional observations from a re-analysis of the deposited data

Results flagged for a closer look

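In 3 of 84 groups of 6 libraries, the highest value stood apart from the others by a gap that was large for the group's range (Dixon's test at 95%), where chance flags about 1 in 20, or 4.2 groups. *Cacna1g* had 104 CPM in replicate 4 labelled *Gadd45a*-KO, against 59.9 to 73.6 CPM in the other 5 (gap over range 0.688). *Cacng5*, a gamma subunit gene, had 30.2 CPM in replicate 3 labelled *Gadd45a*-KO, against 18.8 to 22.5 CPM (0.681). *Cacng6* had 0.88 CPM in replicate 1 labelled *Gadd45a*-WT, against 0.397 to 0.57 CPM (0.641).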

How the results depend on the processing

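*Cacna1e* stayed past 1% FDR under all 23 alternatives, with log2 fold changes from -0.66 to -0.46. *Cacna2d1* did so under 22, from -0.29 to -0.20, and lost its call under the offset for transcript length with the replicate block, where 1 of the 10 genes was lower. Among these alternatives, 5% FDR is the main fit read at a looser threshold, which a gene past 1% FDR passes by definition. The other 8 genes had no call under any alternative, and no called gene of the 10 changed sign. Over all genes, 430 were lower at 1% FDR, against 660 by DESeq2, 248 with the length offset, 274 with that offset and the replicate block, 252 with the thalamic covariate and 726 at 5% FDR. Leaving out 1 library gave 239 to 467, with 268, 239 and 261 without replicates 3, 5 and 6 labelled *Gadd45a*-WT and 248, 276 and 248 without replicates 1, 2 and 6 labelled *Gadd45a*-KO. The 4 higher genes became 18 by DESeq2, 15 with the GC offset, 16 with that offset and the replicate block, 2 with the thalamic covariate and 20 at 5% FDR. The cause of these changes was not tested. Correlations of same-numbered libraries were 0.103 to 0.262 in 5 of 6 pairs and -0.0761 in the other, so the criterion that every pair exceed 0.1 was not met and no pairing was assumed, and 1 of 6 libraries labelled *Gadd45a*-WT correlated best with its own number. With the replicate block, 509 genes were lower and 5 higher, *Cacng3* had an adjusted p of 0.00977 by the edgeR test in place of 0.0997, the SE of *Cacna1e* was 0.06 in place of 0.10, and 2 of the 10 genes were lower as before. Genes near 1 CPM, such as *Cacna2d4* and *Cacng6*, rest on far fewer reads per library, so depth limits them more than the 10 genes, which had at least 2414 reads each.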
